A study of Mus musculus with 24 samples.

Results

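Listed genes of sterol and fatty acid synthesis that are under the control of the SREBP transcription factors were followed by RNA-seq in 3T9 mouse fibroblasts, an immortalised cell line. The list held 32 genes, chosen by pathway but with earlier results of these data known. All 32 were present among the 21671 genes of the authors' table. The cells carried MycER, in which Myc, a transcription factor, is joined to a part of the oestrogen receptor so that OHT (4-hydroxytamoxifen) switches it on, or an empty vector (EV). At 4 h and at 8 h of OHT there were 4 populations, infected with MycER WT, MycER HEA, MycER RA or EV, which made 8 groups of 3 libraries. OHT was given to every group, EV included, and all groups kept the fibroblasts' own Myc gene. The labels give neither the residues that differ in HEA and RA nor whether a population was 1 clone or a pool. They also do not say whether the 3 libraries of a group came from separate cultures, so p-values here reflect the spread of these libraries alone, and that spread may be technical.

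Sterols are built from acetyl-CoA through mevalonate and isoprenoid units to squalene, which is closed into a ring and trimmed to cholesterol. Fatty acids are built from the same acetyl-CoA, first to palmitate and then by elongation and desaturation. The SREBP proteins, encoded by Srebf1 and Srebf2, are held in the membrane of the endoplasmic reticulum by the escort protein Scap. When sterols are scarce Scap carries them to the Golgi, where proteases free the part that enters the nucleus and activates the enzymes' genes, and when sterols are plentiful Insig1 holds Scap back. In dividing fibroblasts these pathways supply the lipids of new membranes.

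Levels are given in RPKM, reads scaled by the length of the gene and the total of the library. Differences are log2 fold changes ± SE on the log2(RPKM + 0.5) scale, from 1 limma fit to all 24 libraries, and a gene passed at a Benjamini-Hochberg adjusted p under 0.05 over the 12268 genes tested. The library totals recovered from the RPKM steps were 9.82 to 12.8 M reads. Esr1, which encodes the receptor part of MycER, was at 9.04 to 13.7 RPKM in the libraries with a MycER form, against 0.0990 to 0.385 RPKM in the EV libraries. Myc itself was lower in WT than in EV cells, with log2 fold changes of -0.51 ± 0.17 at 4 h and -0.60 ± 0.17 at 8 h (limma, adjusted p = 0.0286 and 0.00754). Of 10 fibroblast markers 8 averaged at least 1 RPKM, while Thy1 and Fap did not, and the adipocyte genes Adipoq, Plin1, Cidec and Lep stayed at or near 0. The summed level of 9 adipocyte markers was 2.71 to 7.05 RPKM per library, and of these genes only Fabp4 averaged at least 1 RPKM.

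Of the 32 genes, 31 passed the filter of at least 1 RPKM in at least 3 libraries. The exception was Hmgcs1, the enzyme that condenses acetyl-CoA units into the precursor of mevalonate, which was listed at 0 to 0.0117 RPKM with 8 reads in all libraries together. Why the table lists it so low was not tested, so its value is not read as absence of the transcript. Among the tested genes the median level per library ran from 0.644 RPKM for Acss2 and 4.20 RPKM for Tm7sf2 up to 84.4 RPKM for Fasn, 85.9 RPKM for Sqle and 113 RPKM for Scd2. All other tested genes had medians between those of Tm7sf2 and Fasn.

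At 4 h, MycER HEA cells differed from EV cells in 4 genes that rose and 13 that fell, out of 31. Of all genes tested 43.2% passed, 17.7% higher and 25.5% lower. MycER WT cells at 4 h had 3 genes higher and 1 lower than EV cells, against 26.1% of all genes (11.6% higher, 14.4% lower). At 8 h, 4 genes rose and 9 fell in WT cells against EV cells, with 35.2% of all genes passing (15.2% higher, 20.1% lower). HEA cells at 8 h also had 4 higher and 9 lower, where 47.7% of all genes passed (20.2% higher, 27.5% lower). RA cells had 0 genes higher and 1 lower at each time, against 5.31% of all genes at 4 h (2.58% higher, 2.73% lower) and 2.78% at 8 h (1.49% higher, 1.29% lower). The HEA count at 8 h was 8 instead of 13 without EV at 8 h replicate 1, without EV at 8 h replicate 3 or without HEA at 8 h replicate 1. The RA call at 8 h was lost when any 1 of its 6 libraries was left out. In bulk libraries a lower level can come from less RNA per cell or from fewer cells that make it, and these cannot be told apart.

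The lower calls lay mostly among the 15 tested sterol enzymes. In HEA cells at 4 h, 11 of these fell and 1 rose, with a median log2 fold change of -0.34 over the 15, against -0.06 over all genes tested. In WT cells at 8 h, 8 fell and 2 rose, with a median of -0.36 against -0.02 over all genes. In HEA cells at 8 h, 6 fell and 1 rose, and in WT cells at 4 h only Hsd17b7 passed, lower. Of the 11 fatty acid genes, 3 were higher and 0 lower in WT cells at 4 h and 2 higher and 1 lower at 8 h, with medians of 0.09 and 0.05, and in HEA cells 3 were higher and 1 lower at each time. Counted in either direction, these shares were near or below those of all genes. Higher calls alone were 2 or 3 of the 11 genes, too few to be read as a larger share than among all genes. In HEA cells Acss2 was 1 of the 3 at each time, and it met the filter only through its HEA libraries. Over all genes the higher share was 11.6% and 15.2% in WT cells at 4 h and 8 h, and 17.7% and 20.2% in HEA cells. Lower calls were a smaller share than among all genes. Centring each library on its median moved the balance of calls. Over all genes the share of calls that were higher was 44.7%, or 57.3% centred, in WT cells at 4 h, 43.0%, or 55.2% centred, in WT cells at 8 h, and 42.3%, or 53.6% centred, in HEA cells at 8 h. Among the listed genes the centred counts were 7 higher and 9 lower in WT cells and 7 higher and 4 lower in HEA cells at 8 h, and 5 higher and 11 lower in HEA cells at 4 h.

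**Figure D1:**
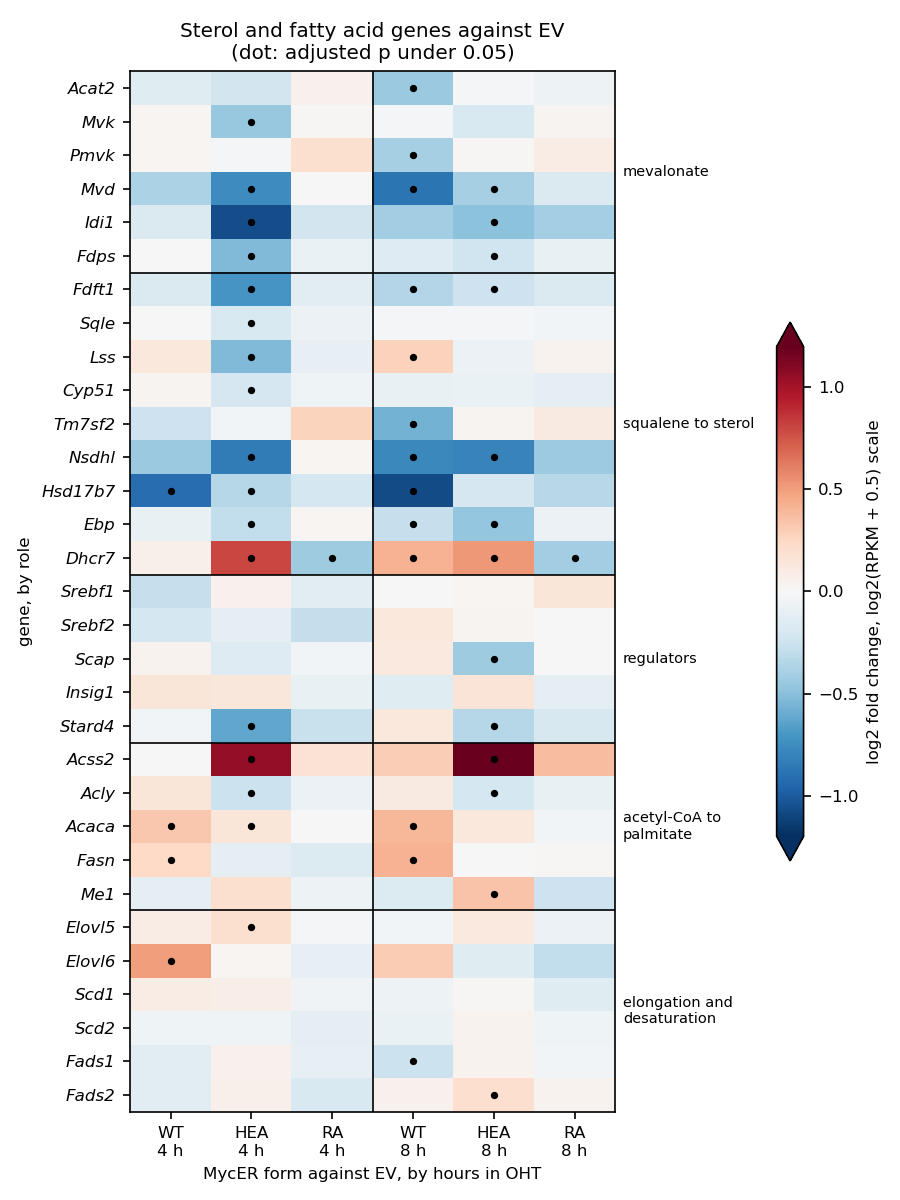
Log2 fold change of each of the 31 tested genes (rows, by role) in MycER WT, HEA and RA cells against EV cells at 4 h and 8 h of OHT (columns), with a dot where the adjusted p was under 0.05; the colour scale ends at 1.2 in both directions. The blue block of sterol enzymes is deepest in HEA at 4 h (Idi1, -1.06) and WT at 8 h (Hsd17b7, -1.07), and Acss2 in HEA at 8 h (1.76) exceeds the scale.

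Among the mevalonate enzymes, Idi1, which interconverts the 2 isoprenoid building blocks, had 25.6, 11.1 and 19.6 RPKM in HEA cells at 4 h, against 37.1, 33.9 and 42.2 RPKM in EV cells. Every HEA library lay below every EV library, and HEA replicate 2 was the lowest of the 24 libraries. The log2 fold change was -1.06 ± 0.20 (limma, adjusted p = 0.000253). At 8 h the HEA libraries had 30.9, 50.9 and 41.7 RPKM and the EV libraries 58.0, 55.3 and 58.0 RPKM, again without overlap, for a log2 fold change of -0.50 ± 0.20 (adjusted p = 0.0473). WT cells averaged 42.7 ± 4.77 RPKM at 8 h (SD, n = 3), below the EV libraries without overlap, but did not pass in the limma fit (-0.42, adjusted p = 0.111).

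Mvd decarboxylates mevalonate pyrophosphate to the first isoprenoid unit. It had 7.39, 6.93 and 8.10 RPKM in HEA cells at 4 h, against 14.2, 12.2 and 12.4 RPKM in EV cells, with every HEA library below every EV library. The log2 fold change was -0.75 ± 0.15 (adjusted p = 0.000448). The 8 h libraries had 11.7, 12.1 and 11.3 RPKM in WT cells and 12.5, 20.7 and 17.3 RPKM in HEA cells, against 24.9, 18.7 and 22.5 RPKM in EV cells. The WT libraries all lay below the EV libraries, and among the HEA libraries replicate 2 reached into the EV range. The log2 fold changes at 8 h were -0.88 ± 0.15 in WT cells (adjusted p = 0.000133) and -0.40 ± 0.15 in HEA cells (adjusted p = 0.0357). WT cells were below HEA cells at 8 h (-0.48 ± 0.15, adjusted p = 0.012), which missed the threshold under a fit on those groups alone (0.0518) and leaving out HEA 8 h replicate 2 (0.0963).

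Fdps makes farnesyl pyrophosphate, the last precursor shared by sterols and prenylated proteins. It had 48.1, 49.3 and 47.7 RPKM in HEA cells at 4 h, against 68.8, 74.4 and 67.4 RPKM in EV cells, with the groups well apart and a log2 fold change of -0.53 ± 0.095 (adjusted p = 0.000146). Its 8 h values were 57.5, 75.3 and 69.9 RPKM in HEA cells and 82.4, 77.8 and 77.4 RPKM in EV cells, again without overlap, with a log2 fold change of -0.24. Mvk, the first kinase of the branch, was also lower in HEA cells at 4 h (-0.46 ± 0.10), while Pmvk, the second kinase, and Acat2, which joins acetyl-CoA units, were lower in WT cells at 8 h (-0.40 ± 0.093 and -0.44 ± 0.14). Acat2 missed the threshold on leaving out EV 8 h replicate 1 (0.0531) or 3 (0.0508) or WT 8 h replicate 3 (0.0864).

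Of the sterol enzymes lower in HEA cells at 8 h, Idi1, Mvd, Fdps and Fdft1 were the least stable. Mvd missed the threshold under median centring (0.0679), quantile normalisation (0.0657), no filter (0.0729), a fit on those groups alone (0.0874) and removal of the reads-per-base trend (0.078). Its adjusted p was also above 0.05 on leaving out EV 8 h replicate 1 (0.156) or 3 (0.0916) or HEA 8 h replicate 1 (0.276). Idi1 missed it under median centring (0.0791), quantile normalisation (0.0552), no filter (0.111), the replicate block (0.0557) and removal of the reads-per-base trend (0.0682). The call was also lost on leaving out EV 8 h replicate 1 (0.101), 2 (0.075) or 3 (0.102) or HEA 8 h replicate 1 (0.264) or 3 (0.0741). Fdps missed it under median centring (0.192), no filter (0.0935), a fit on those groups alone (0.054), the replicate block (0.0532) and voom (0.0521). It was lost as well on leaving out EV 8 h replicate 1 (0.134), 2 (0.0709) or 3 (0.0716) or HEA 8 h replicate 1 (0.307) or 3 (0.0527). Fdft1 missed it under median centring (0.154), quantile normalisation (0.0933), no filter (0.0713), a fit on those groups alone (0.0635), the replicate block (0.0568) and removal of the reads-per-base trend (0.174). Its adjusted p was also above 0.05 on leaving out EV 8 h replicate 1 (0.129), 2 (0.098) or 3 (0.0579) or HEA 8 h replicate 1 (0.298) or 3 (0.0615).

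After squalene, the enzyme with the strongest WT effect was Hsd17b7, a ketoreductase that acts in the removal of methyl groups from the sterol ring. It had 8.08, 9.07 and 7.77 RPKM in WT cells at 4 h, against 17.3, 14.2 and 16.8 RPKM in EV cells, and 8.80, 9.68 and 8.21 RPKM in WT cells at 8 h, against 18.5, 20.5 and 18.6 RPKM in EV cells. At both times every WT library lay well below every EV library. The log2 fold changes were -0.91 ± 0.10 at 4 h (adjusted p = 2.07e-06) and -1.07 ± 0.10 at 8 h (adjusted p = 1.21e-07). HEA cells, at 12.5 ± 0.371 RPKM at 4 h (SD, n = 3), fell by less, with a log2 fold change of -0.34 ± 0.10 that missed the threshold on leaving out EV 4 h replicate 1 (0.0508). WT cells were below HEA cells at 4 h (-0.57 ± 0.10, adjusted p = 0.000108) and at 8 h (-0.86 ± 0.10, adjusted p = 4.94e-07).

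Nsdhl, the dehydrogenase that works beside Hsd17b7 in demethylation, was lower in both forms. There were 18.2, 17.5 and 14.4 RPKM in WT cells and 12.7, 20.8 and 16.3 RPKM in HEA cells at 8 h, against 29.5, 28.7 and 27.9 RPKM in EV cells. No library of either form reached the EV range. The log2 fold changes were -0.77 ± 0.18 in WT cells (adjusted p = 0.00268) and -0.80 ± 0.18 in HEA cells (adjusted p = 0.00133). At 4 h it had 11.5, 6.75 and 10.6 RPKM in HEA cells, against 19.0, 14.2 and 18.7 RPKM in EV cells, a log2 fold change of -0.84 (adjusted p = 0.00102).

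Fdft1, squalene synthase, had 12.3, 11.2 and 12.5 RPKM in HEA cells at 4 h, against 19.8, 20.2 and 19.4 RPKM in EV cells. The groups did not overlap, and the log2 fold change was -0.70 ± 0.099 (adjusted p = 9.75e-06), the smallest p among the lower genes of that comparison. In WT cells at 8 h it had 20.0, 18.4 and 18.9 RPKM, against 25.4, 24.9 and 23.5 RPKM in EV cells, for a log2 fold change of -0.36 ± 0.099 (adjusted p = 0.00798). Tm7sf2, a sterol reductase, was lower only in WT cells among the calls against EV, at 3.03, 3.12 and 2.53 RPKM at 8 h, against 4.22, 4.81 and 4.54 RPKM in EV cells. Its log2 fold change was -0.57 ± 0.13 (adjusted p = 0.00164), and WT cells were below HEA cells at 8 h, with a log2 fold change of -0.60 ± 0.13 (adjusted p = 0.000566).

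Lss, which closes squalene epoxide into lanosterol, was lower in HEA cells at 4 h and higher in WT cells at 8 h. It had 16.2, 14.6 and 12.8 RPKM in HEA cells at 4 h, against 20.2, 22.5 and 20.7 RPKM in EV cells, without overlap (-0.53 ± 0.11, adjusted p = 0.000466). It had 32.9, 29.6 and 32.2 RPKM in WT cells at 8 h, against 27.8, 25.8 and 24.3 RPKM in EV cells, also without overlap but by only 0.28 ± 0.11 (adjusted p = 0.0476). This rise in WT cells missed the threshold under no filter (0.0858), the replicate block (0.056) and removal of the 3 farthest libraries (0.111). The call was also lost on leaving out EV 8 h replicate 2 (0.0953) or 3 (0.163) or WT 8 h replicate 1 (0.13) or 3 (0.108). WT cells were above HEA cells at 4 h by 0.66 ± 0.11 (adjusted p = 4.19e-05).

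The smaller changes were those of Sqle, Cyp51 and Ebp. Sqle, squalene epoxidase, and Cyp51, lanosterol demethylase, were lower in HEA cells at 4 h, with log2 fold changes of -0.18 ± 0.051 and -0.20 ± 0.065. Sqle missed the threshold under median centring (0.068). Cyp51 did so under median centring (0.0536), a fit on those groups alone (0.0538) and removal of the reads-per-base trend (0.0619). It was lost as well on leaving out EV 4 h replicate 1 (0.0679). Ebp, the sterol isomerase, was lower in HEA cells at 4 h (-0.30 ± 0.08) and 8 h (-0.46 ± 0.08, adjusted p = 8.81e-05). In WT cells at 8 h it was lower (-0.27 ± 0.08), which missed the threshold on leaving out WT 8 h replicate 3 (0.0686).

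Dhcr7, the reductase of the last step to cholesterol, was the only sterol enzyme called higher in HEA cells, at 4 h and at 8 h. At 4 h it had 17.9, 19.2 and 19.7 RPKM in HEA cells and 8.49, 6.71 and 8.15 RPKM in RA cells, against 9.66, 11.1 and 11.0 RPKM in EV cells. All HEA libraries lay above, and all RA libraries below, the EV libraries. It rose in HEA cells by 0.80 ± 0.11 (adjusted p = 4.67e-06), and in RA cells the log2 fold change was -0.43 ± 0.11 (adjusted p = 0.0235). At 8 h it had 21.0, 17.6 and 20.1 RPKM in WT cells, 21.2, 22.3 and 19.3 RPKM in HEA cells and 10.2, 10.4 and 11.4 RPKM in RA cells, against 14.2, 15.4 and 13.8 RPKM in EV cells. All WT and HEA libraries lay above, and all RA libraries below, the EV libraries, and the log2 fold changes were 0.42 ± 0.11 (adjusted p = 0.00412), 0.52 ± 0.11 (adjusted p = 0.000455) and -0.42 ± 0.11 (adjusted p = 0.0374). The RA calls were marginal. At 4 h the RA call was lost under a fit on those groups alone (0.157). Its adjusted p was also above 0.05 on leaving out EV 4 h replicate 2 (0.111) or 3 (0.0754) or RA 4 h replicate 2 (0.134). At 8 h it was lost under no filter (0.0531) and the replicate block (0.0542). The call was also lost on leaving out EV 8 h replicate 1 (0.0972), 2 (0.119) or 3 (0.0887) or RA 8 h replicate 1 (0.171), 2 (0.108) or 3 (0.0533).

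**Figure D2:**
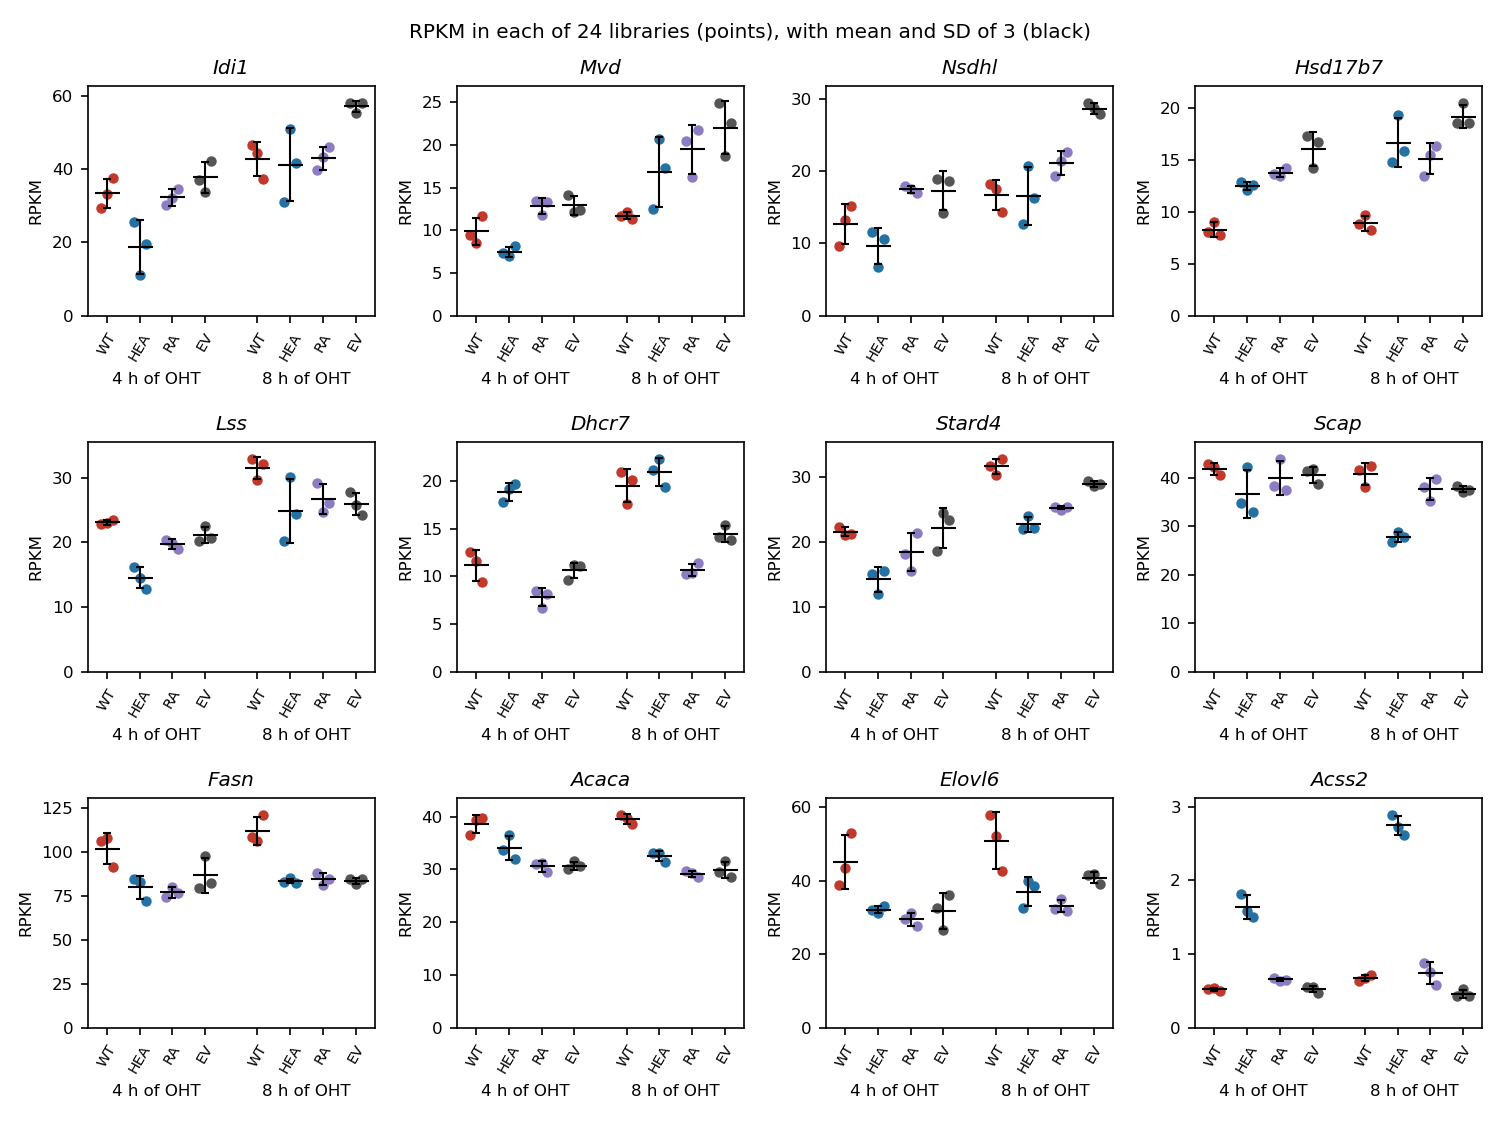
RPKM of 12 genes in each of the 24 libraries (points), with the mean and SD of the 3 libraries of a group in black; the groups are WT, HEA, RA and EV at 4 h, then at 8 h of OHT, and each axis starts at 0. Hsd17b7 is lowest in WT at both times, Dhcr7 is highest in HEA and lowest in RA, and Acss2 stands out in HEA; Fasn, Acaca and Elovl6 were added to the plot after their values were seen.

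The promoter sequences of 4 listed genes are shown, those with the smallest p in WT cells against EV cells at 8 h, of which Hsd17b7 and Mvd fell and the fatty acid genes Acaca and Fasn rose. They are the 250 bases before the annotated start in RefSeq (GRCm38.p6), a newer build than the mm9 of the deposited files, with letters of an E-box (CACGTG) or a CCAAT box in capitals on either strand. The sequences are at chr11:84195188-84195437 for Acaca, on the plus strand, and on the minus strand at chr1:169969206-169969455 for Hsd17b7, chr8:122443423-122443672 for Mvd and chr11:120824548-120824797 for Fasn.
Hsd17b7: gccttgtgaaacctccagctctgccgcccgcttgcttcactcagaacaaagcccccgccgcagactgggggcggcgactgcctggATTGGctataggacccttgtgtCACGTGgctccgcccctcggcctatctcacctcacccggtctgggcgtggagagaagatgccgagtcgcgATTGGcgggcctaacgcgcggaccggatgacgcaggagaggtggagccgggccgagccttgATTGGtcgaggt
Acaca: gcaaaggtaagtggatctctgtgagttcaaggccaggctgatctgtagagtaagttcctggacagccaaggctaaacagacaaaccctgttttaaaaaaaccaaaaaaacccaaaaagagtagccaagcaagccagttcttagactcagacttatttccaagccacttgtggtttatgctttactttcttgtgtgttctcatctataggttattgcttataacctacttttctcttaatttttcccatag
Mvd: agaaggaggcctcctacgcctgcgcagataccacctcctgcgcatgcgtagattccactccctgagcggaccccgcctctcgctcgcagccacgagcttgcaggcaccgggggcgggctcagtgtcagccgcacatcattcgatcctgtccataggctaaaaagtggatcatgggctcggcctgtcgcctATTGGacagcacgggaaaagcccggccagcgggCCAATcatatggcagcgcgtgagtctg
Fasn: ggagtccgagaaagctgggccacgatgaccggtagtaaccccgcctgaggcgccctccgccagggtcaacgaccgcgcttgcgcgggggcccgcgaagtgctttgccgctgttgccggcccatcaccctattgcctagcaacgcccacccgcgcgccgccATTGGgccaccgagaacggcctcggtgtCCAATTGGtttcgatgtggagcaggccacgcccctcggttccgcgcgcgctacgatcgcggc
CACGTG is the E-box that Myc with its partner Max recognises best, and CCAAT is bound by NF-Y, a common partner of SREBP. The Hsd17b7 sequence holds an E-box that starts 143 bases before the gene's start and 3 CCAAT boxes, that of Acaca holds neither motif, that of Mvd holds 2 CCAAT boxes and no E-box, and in that of Fasn 2 of 3 CCAAT boxes overlap on opposite strands. RefSeq promoters, each with 50 further bases after the start, were found for 25 of the 32 genes, in 32 windows of 300 bases. CACGTG was present in 18.8% of these windows, against 7.15% of all 32851 windows of that length, in Dhcr7, Elovl5, Hsd17b7, Insig1 and Scap. CCAAT was present in 65.6%, against 37.4% of all windows, and the sterol response element TCACNCCAC in 3.12%, against 1.24%, which was Hmgcs1 alone. A match is only a match of letters, and N stands for any base. Whether the Acaca window, the only window found for that gene, is a promoter in use in these cells was not tested. Its lack of both motifs is therefore not read as a trait of the gene's promoters.

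Transcripts of the 2 SREBP genes themselves did not pass in any comparison against EV. Srebf2, the factor of the sterol enzymes, had 36.0, 34.5 and 26.3 RPKM in WT cells, 38.6, 35.9 and 29.1 in HEA cells and 34.6, 27.0 and 30.3 in RA cells at 4 h, against 31.5, 47.0 and 34.6 RPKM in EV cells. EV replicate 2 was the highest and all groups overlapped. At 8 h it had 36.6, 34.9 and 49.3 RPKM in WT cells, 38.0, 39.999 and 33.8 in HEA cells and 37.7, 34.5 and 36.5 in RA cells, against 36.5, 37.6 and 35.3 RPKM in EV cells. There the third WT library stood above the rest, and the log2 fold changes were 0.13 ± 0.15, 0.03 ± 0.15 and -0.01 ± 0.15.

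Srebf1, the factor tied more to fatty acid genes, had 42.2, 37.1 and 29.4 RPKM in WT cells, 44.6, 51.5 and 39.7 in HEA cells and 39.8, 40.8 and 38.2 in RA cells at 4 h, against 42.0, 49.0 and 39.98 RPKM in EV cells. The third WT library was the lowest, and the log2 fold change of WT cells was -0.28 ± 0.12 (adjusted p = 0.0889), which passed without WT at 4 h replicate 1 (0.0203). At 8 h it had 34.9, 34.6 and 44.1 RPKM in WT cells, 38.9, 37.6 and 37.3 in HEA cells and 43.6, 37.0 and 43.6 in RA cells, against 38.6, 37.3 and 36.3 RPKM in EV cells. Those groups overlapped, and the log2 fold changes lay between 0.01 and 0.14. WT cells were below HEA cells at 4 h (-0.32 ± 0.12, adjusted p = 0.027), a call lost under no filter (0.0608), a fit on those groups alone (0.121) and removal of the 3 farthest libraries (0.503). It was lost as well on leaving out WT 4 h replicate 3 (0.208) or HEA 4 h replicate 1 (0.053) or 2 (0.15).

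Scap, the escort of the SREBP proteins, was lower in HEA cells at 8 h. It had 26.8, 28.9 and 27.8 RPKM there, 41.6, 38.1 and 42.5 RPKM in WT cells and 38.2, 35.2 and 39.7 RPKM in RA cells, against 38.2, 37.0 and 37.5 RPKM in EV cells. The HEA libraries were below all others. The log2 fold change was -0.43 ± 0.079 against EV (adjusted p = 0.000172), and WT cells were above HEA cells by 0.54 ± 0.079 (adjusted p = 8.76e-06). At 4 h Scap had 34.8, 42.3 and 32.9 RPKM in HEA cells, against 41.3, 41.8 and 38.8 RPKM in EV cells, with HEA replicate 2 above all EV libraries and the others below them. WT cells had 42.9, 42.2 and 40.5 RPKM and RA cells 38.3, 43.9 and 37.4 RPKM at 4 h, which overlapped with EV. The HEA difference at 4 h, -0.15 ± 0.079 (adjusted p = 0.123), passed without the 3 farthest libraries (0.0069) and without HEA at 4 h replicate 2 (0.00819).

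Insig1, the anchor of Scap and itself a target of SREBP, had 51.2, 53.8 and 67.1 RPKM in WT cells, 57.6, 58.8 and 53.7 in HEA cells and 44.4, 51.6 and 49.6 in RA cells at 4 h, against 54.3, 48.7 and 51.6 RPKM in EV cells. At 8 h it had 62.8, 58.2 and 52.7 RPKM in WT cells, 64.4, 76.0 and 73.0 in HEA cells and 60.6, 54.9 and 60.7 in RA cells, against 65.9, 62.9 and 62.5 RPKM in EV cells. No form passed against EV at either time, and 2 of the 3 HEA libraries at 8 h were above all EV libraries. The 8 h difference of HEA cells, 0.15 ± 0.089 (adjusted p = 0.166), passed under median centring (0.0395), quantile normalisation (0.0323) and removal of the reads-per-base trend (0.0187). The 4 h difference, 0.14 ± 0.089, passed under quantile normalisation (0.0311) and removal of the reads-per-base trend (0.0189). WT cells were below HEA cells at 8 h (-0.29 ± 0.089, adjusted p = 0.00989), a call lost on leaving out WT 8 h replicate 3 (0.0583) or HEA 8 h replicate 2 (0.053). Insig1 was thus not called lower in HEA cells. Of the 15 tested sterol enzymes, 11 were called lower there at 4 h and 6 at 8 h.

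Stard4, a carrier that moves cholesterol between membranes and is an SREBP target, had 15.1, 12.01 and 15.6 RPKM in HEA cells at 4 h, against 18.6, 24.5 and 23.4 RPKM in EV cells. All HEA libraries lay below the EV libraries, with a log2 fold change of -0.62 ± 0.11 (adjusted p = 9.48e-05). It had 21.9, 23.97 and 22.2 RPKM in HEA cells at 8 h, against 29.4, 28.6 and 28.9 RPKM in EV cells (-0.35 ± 0.11, adjusted p = 0.0113), which missed the threshold under removal of the reads-per-base trend (0.0568). WT cells were above HEA cells by 0.59 ± 0.11 at 4 h and by 0.47 ± 0.11 at 8 h (adjusted p = 0.000123 and 0.000979).

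On the fatty acid side the largest difference was that of Acss2, which makes acetyl-CoA from acetate. It had 1.82, 1.59 and 1.498 RPKM in HEA cells at 4 h, against 0.548, 0.554 and 0.472 RPKM in EV cells, and 2.89, 2.73 and 2.62 RPKM in HEA cells at 8 h, against 0.434, 0.522 and 0.424 RPKM in EV cells. Every HEA library stood above every library of the other groups, whose highest was 0.884 RPKM. Acss2 thus met the filter of 1 RPKM only through its HEA libraries, the group where it was high. Its p-values for HEA cells are therefore not independent of that filter. The log2 fold changes, which the pseudocount makes smaller for so low a gene, were 1.06 ± 0.12 at 4 h (adjusted p = 7.59e-07) and 1.76 ± 0.12 at 8 h (adjusted p = 6.19e-10). WT cells averaged 0.678 ± 0.0391 RPKM and RA cells 0.741 ± 0.150 RPKM at 8 h (SD, n = 3), which did not pass (0.30 and 0.37). Both passed with no filter on low values (adjusted p = 0.00822 and 0.0224) and in voom on the recovered reads (0.0114 and 0.0253).

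Core genes of palmitate synthesis rose in WT cells. Acaca, the carboxylase that commits acetyl-CoA to fatty acids, averaged 38.6 ± 1.79 RPKM in WT cells and 30.7 ± 0.761 RPKM in EV cells at 4 h (SD, n = 3 each). At 8 h the averages were 39.5 ± 0.907 RPKM in WT cells and 29.9 ± 1.56 RPKM in EV cells (SD, n = 3 each). It rose by 0.32 ± 0.057 at 4 h (adjusted p = 0.00033) and by 0.40 ± 0.057 at 8 h (adjusted p = 1.99e-05), under every alternative. Fasn, fatty acid synthase, averaged 112 ± 8.02 RPKM in WT cells and 83.5 ± 1.70 RPKM in EV cells at 8 h (SD, n = 3 each) and rose by 0.41 ± 0.076 (adjusted p = 0.00027). Its rise at 4 h, 0.24 ± 0.076 (adjusted p = 0.0272), missed the threshold under quantile normalisation (0.132), no filter (0.0581), a fit on those groups alone (0.173) and removal of the reads-per-base trend (0.128). Its adjusted p was also above 0.05 on leaving out EV 4 h replicate 1 (0.131) or 3 (0.0997) or WT 4 h replicate 1 (0.081) or 2 (0.109).

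Elovl6, which lengthens palmitate to stearate, averaged 45.0 ± 7.23 RPKM in WT cells and 31.7 ± 4.86 RPKM in EV cells at 4 h (SD, n = 3 each). The log2 fold change of 0.50 ± 0.12 (adjusted p = 0.00395) missed the threshold under a fit on those groups alone (0.082). At 8 h the difference of 0.30 ± 0.12 (adjusted p = 0.052) did not pass, but passed under median centring (0.0118), quantile normalisation (0.0253), voom (0.0337), removal of the 3 farthest libraries (0.00481) and removal of the reads-per-base trend (0.019). It also passed on leaving out WT 8 h replicate 3 (0.0114). Fads1, a desaturase of polyunsaturated fatty acids, was lower in WT cells at 8 h, with 52.2 RPKM on average in WT cells and 62.4 RPKM in EV cells (-0.25 ± 0.06, adjusted p = 0.00264).

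In HEA cells, Acly, which makes acetyl-CoA from citrate, was lower at 4 h (-0.26 ± 0.057, adjusted p = 0.00105) and at 8 h (-0.21 ± 0.057, adjusted p = 0.00464), the second of which missed the threshold under median centring (0.0702). Me1, the malic enzyme that supplies NADPH, averaged 40.8 ± 1.06 RPKM in HEA cells and 32.2 ± 0.410 RPKM in EV cells at 8 h (SD, n = 3 each) and rose by 0.34 ± 0.083 (adjusted p = 0.00237). The rises of Acaca (0.14 ± 0.057) and the elongase Elovl5 (0.19 ± 0.074) at 4 h and of the desaturase Fads2 (0.20 ± 0.079) at 8 h were small. Acaca missed the threshold under a fit on those groups alone (0.207) and removal of the 3 farthest libraries (0.209). It was lost as well on leaving out EV 4 h replicate 1 (0.132) or 3 (0.106) or HEA 4 h replicate 1 (0.0804) or 2 (0.235). Elovl5 missed it under no filter (0.0778), a fit on those groups alone (0.115), the replicate block (0.0511) and removal of the 3 farthest libraries (0.0842). Its adjusted p was also above 0.05 on leaving out EV 4 h replicate 2 (0.246) or HEA 4 h replicate 2 (0.158) or 3 (0.0768). Fads2 did so under no filter (0.0672) and the replicate block (0.0572). The call was also lost on leaving out EV 8 h replicate 1 (0.118), 2 (0.0544) or 3 (0.103) or HEA 8 h replicate 1 (0.117) or 2 (0.117).

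The stearoyl-CoA desaturase genes Scd1 and Scd2, which make monounsaturated fatty acids, did not pass against EV in any form. Over the 6 comparisons the log2 fold changes of Scd1 lay between -0.14 and 0.09, and those of Scd2 between -0.12 and 0.04. Both genes are related in sequence, and the sources used here do not give how reads that could come from either were counted. Scd2 had 1.24 reads per base of gene, the most of the listed genes. Within groups, the reads of such deep genes grew less than in proportion to the library total. The median slope on the log2 scale was 0.47 in the 244 genes above 1 read per base, against 1.30 in those under 0.1. It was 0.76 in the 944 genes at 0.6 to 1 read per base, 9 of them listed, Sqle, Cyp51 and Fasn included. With quantile normalisation, Scd2 in WT cells passed as lower at 4 h (adjusted p = 0.00485) and 8 h (0.00107), and likewise at 4 h (0.0041) and 8 h (0.00688) once that trend on depth was taken out.

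Between 4 h and 8 h of OHT, sterol genes were higher at 8 h in HEA cells. There 13 of the 31 genes rose and 1 fell, where 3.33% of all genes passed (1.26% higher, 2.08% lower), and 11 of the 15 sterol enzymes rose. Idi1 averaged 41.2 ± 10.0 RPKM at 8 h and 18.7 ± 7.30 RPKM at 4 h in HEA cells, and Mvd 16.9 ± 4.10 RPKM at 8 h and 7.47 ± 0.589 RPKM at 4 h (SD, n = 3 each). The log2 fold changes were 1.16 ± 0.20 for Idi1 (adjusted p = 0.00324), 1.10 ± 0.15 for Mvd (adjusted p = 0.000372), 0.77 ± 0.099 for Fdft1 and 0.75 ± 0.11 for Lss. Stard4 (0.66 ± 0.11) and Acss2 (0.61 ± 0.12) were also higher at 8 h, and Scap (-0.38 ± 0.079) was lower. Fitted on the 6 HEA libraries alone, 0 of the 31 passed, but only 2 of all 12268 genes did. Without HEA at 8 h replicate 2, the highest HEA library of Idi1, Mvd and Lss at that time, 7 of the 31 passed. Of all genes 151 passed there, against 409 with all 24 libraries. The count of listed genes was 8 without HEA at 8 h replicate 3 or without HEA at 4 h replicate 2, the lowest library of Idi1 and Nsdhl. In these fits 129 and 105 of all genes passed.

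In EV cells, where OHT acts on no MycER, 0 genes passed between 8 h and 4 h in limma, with 0.0245% of all genes passing. At an unadjusted p under 0.05, 14 of the 31 were higher at 8 h and none lower, against 1437 of the 12268 genes in either direction. The largest were Mvd (0.74 ± 0.15, adjusted p = 0.0717), Nsdhl (0.73 ± 0.18, adjusted p = 0.146) and Idi1 (0.60 ± 0.20, adjusted p = 0.254). Idi1 had 58.0, 55.3 and 58.0 RPKM in EV cells at 8 h, against 37.1, 33.9 and 42.2 RPKM at 4 h, and Nsdhl 29.5, 28.7 and 27.9 RPKM at 8 h, against 19.0, 14.2 and 18.7 RPKM at 4 h. The 8 h libraries of both genes lay above all 4 h libraries. Mvd passed in voom on the recovered reads (0.0482), and Mvd, Nsdhl, Idi1 and Dhcr7 passed without the 3 farthest libraries (0.0337, 0.0337, 0.0494 and 0.0494).

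In WT cells 3 genes were higher at 8 h than at 4 h, Dhcr7 (0.79 ± 0.11), Stard4 (0.54 ± 0.11) and Lss (0.44 ± 0.11), where 8.46% of all genes passed (4.46% higher, 4.00% lower). Fitted on the 6 WT libraries alone, 0 of the 31 passed, and 0 of all 12268 genes did. Over all genes 52.7% of the WT calls between the times were higher at 8 h, or 38.1% with each library centred on its median. In RA cells 0 passed in limma, against 0.220% of all genes, while 6 were higher and none lower at an unadjusted p under 0.05, against 1211 of the 12268 genes in either direction. Tests of whether a form's effect against EV differed between 8 h and 4 h called 0 of the 31 genes in each form, where 0.0163% of all genes passed for WT, 0.0163% for HEA and 0% for RA. At an unadjusted p under 0.05 there were 4 of the 31 genes for WT, 6 for HEA and 0 for RA, against 1395, 408 and 256 of the 12268 genes. In HEA cells these included Acss2 (0.70 ± 0.17, adjusted p = 0.333), Fdft1 (0.46 ± 0.14) and Lss (0.46 ± 0.15). A larger or smaller effect at 8 h than at 4 h was thus not shown for any listed gene, although the calls differ between the times.

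**Figure D3:**
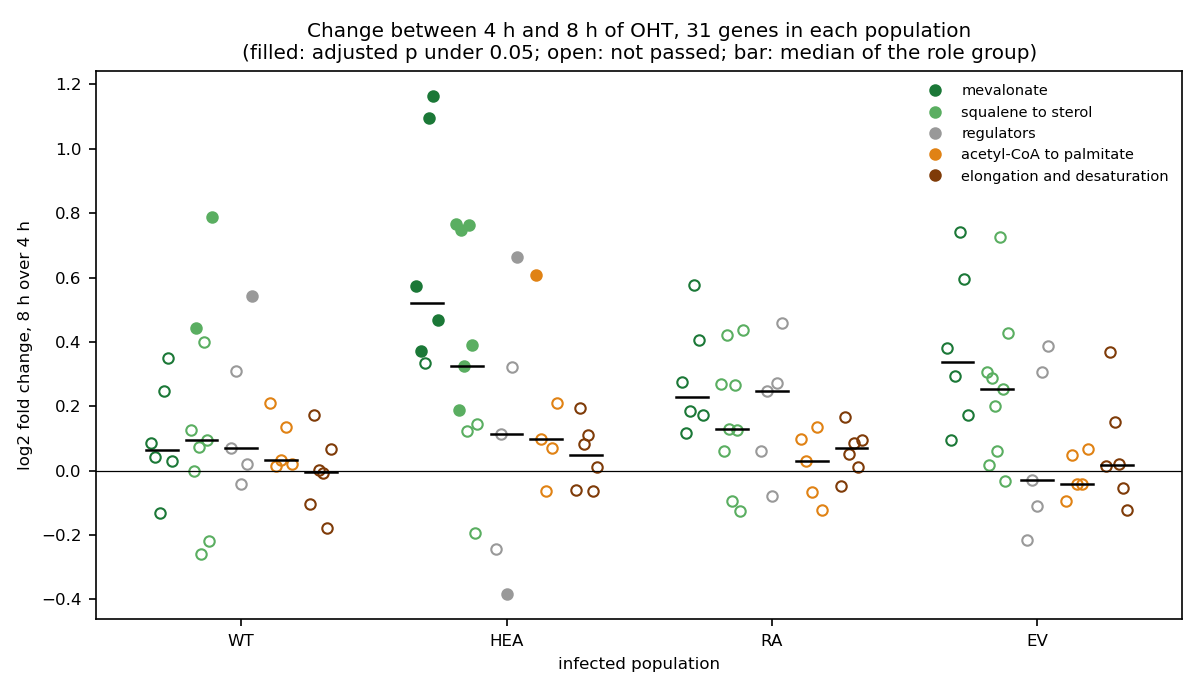
Log2 fold change of 8 h over 4 h of OHT for the 31 genes in WT, HEA, RA and EV cells (y axis), coloured by role, filled where the adjusted p was under 0.05; black bars are role medians. Mevalonate and squalene-to-sterol genes lie mostly above 0 in all 4 populations (11 of 15 in WT), and the filled points are mostly in HEA.

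Compared directly, WT and HEA cells differed at 4 h in 22 of the 31 genes, 15 higher and 7 lower in WT cells, where 49.5% of all genes passed (26.9% higher, 22.6% lower). Fitted on the 6 libraries of those groups alone, 13 of the 31 passed, and 3945 of all genes did, against 6073 with all 24 libraries. WT cells were higher in Idi1 (0.89 ± 0.20), Fdps (0.53 ± 0.095), Fdft1 (0.53 ± 0.099), Mvk (0.48 ± 0.10), Acly (0.40 ± 0.057) and Fasn (0.35 ± 0.076). WT cells were lower in Acss2 (-1.07 ± 0.12), Dhcr7 (-0.74 ± 0.11) and Me1 (-0.32 ± 0.083). These 9 differences passed under every alternative run.

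At 8 h the direct comparison had 7 genes higher and 9 lower in WT cells, where 48.0% of all genes passed (24.6% higher, 23.4% lower). Among the sterol enzymes the counts were 1 higher and 5 lower in WT cells at 8 h and 9 higher and 2 lower at 4 h. Hsd17b7, Tm7sf2, Mvd, Pmvk and Acat2 were lower in WT than in HEA cells, and Acat2 missed the threshold on leaving out WT 8 h replicate 3 (0.0849) or HEA 8 h replicate 2 (0.0702) or 3 (0.0689). Pmvk averaged 14.4 ± 1.36 RPKM in WT cells and 19.4 ± 2.39 RPKM in HEA cells (SD, n = 3 each), a log2 fold change of -0.41 ± 0.093 (adjusted p = 0.000954). Fasn (0.42 ± 0.076), Acly (0.32 ± 0.057), Acaca (0.28 ± 0.057) and Elovl6 (0.45 ± 0.12) were higher in WT cells, and Acss2 (-1.46 ± 0.12), Me1 (-0.50 ± 0.083) and Fads1 (-0.30 ± 0.06) lower.

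**Figure D4:**
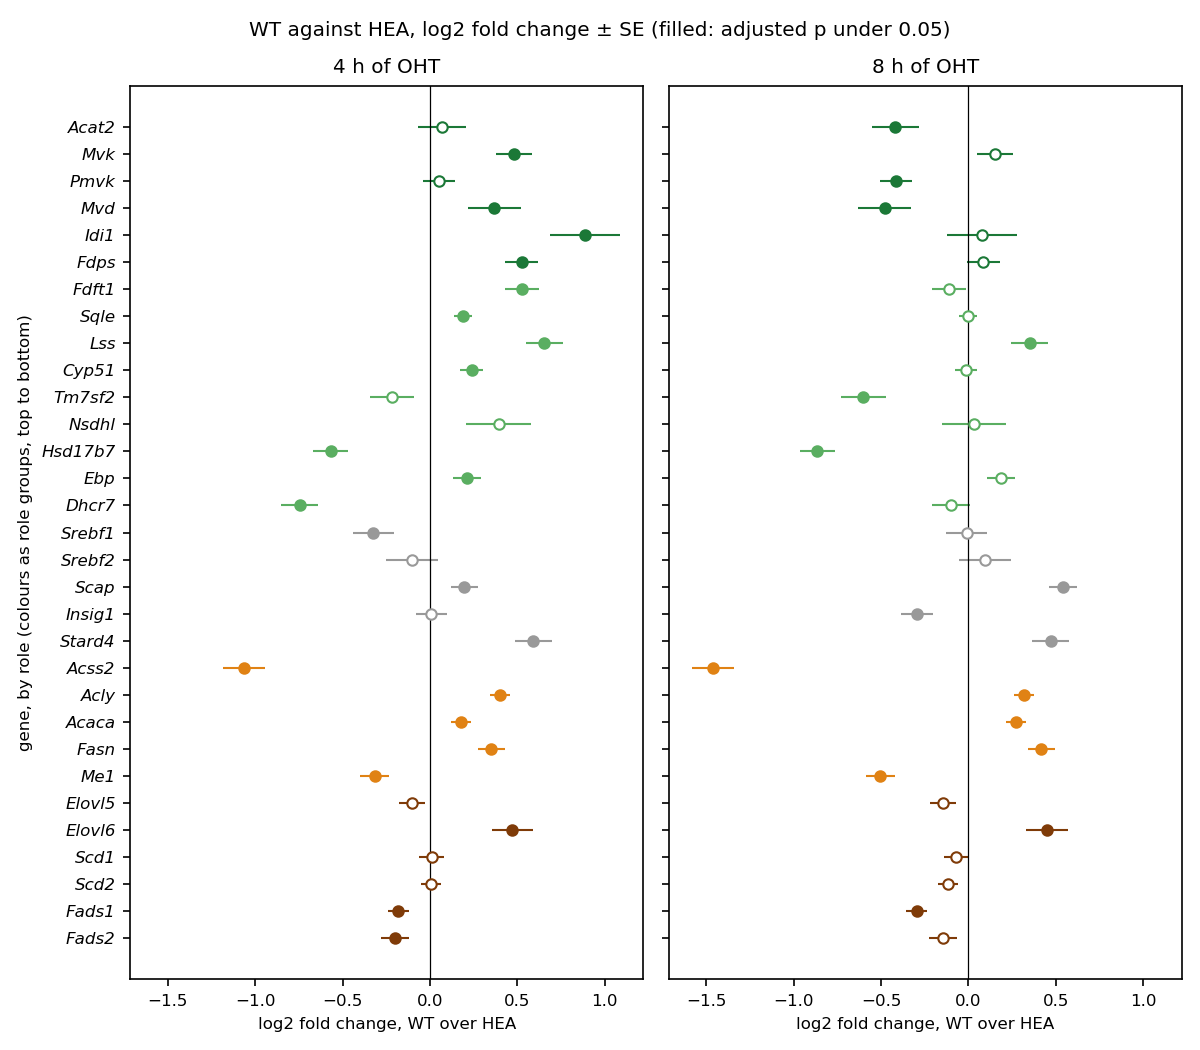
Log2 fold change ± SE of WT over HEA cells for the 31 genes (rows, by role) at 4 h (left) and 8 h (right), filled where the adjusted p was under 0.05. At 4 h most mevalonate and squalene-to-sterol points lie right of 0, at 8 h Hsd17b7, Tm7sf2, Mvd, Pmvk and Acat2 lie left, and Acss2 is far left at both times.

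In RA cells the listed genes stayed close to EV, with log2 fold changes between -0.43 and 0.27 at 4 h and between -0.43 and 0.37 at 8 h. The lowest at 8 h that did not pass were Nsdhl (-0.43 ± 0.18, adjusted p = 0.215), Idi1 (-0.41 ± 0.20, adjusted p = 0.297) and Hsd17b7 (-0.34 ± 0.10, adjusted p = 0.0736). Fitted on the 6 RA and EV libraries of 8 h alone, 1310 of the 12268 genes passed, against 341 with all 24 libraries. Of the listed genes, 7 passed in the fit on those 6, all lower: Idi1 (0.0113), Nsdhl (0.0123), Elovl6 (0.0191), Me1 (0.0275), Stard4 (0.0368), Hsd17b7 (0.0415) and Dhcr7. RA cells at 8 h had 8 listed genes lower and 0 higher in the authors' deposited table, at an adjusted p under 0.05, where 15.8% of all genes in it passed. Among them were Idi1 with a log2 fold change of -0.39, Nsdhl with -0.41 and Elovl6 with -0.30. For the other comparisons against EV, the authors' deposited table had 2 higher and 1 lower for WT at 4 h (17.0% of all genes passed), 2 and 10 for HEA at 4 h (33.0%) and 0 and 1 for RA at 4 h (5.36%). At 8 h the authors' deposited table had 5 and 9 for WT (32.6%) and 7 and 6 for HEA (49.9%).

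Summed levels of marker transcripts also differed between groups. The summed level of 4 nuclear and RNA quality transcripts (Malat1, Neat1, Meg3 and Kcnq1ot1) was 221 to 253 RPKM in HEA cells and 197 to 225 RPKM in EV cells at 4 h. At 8 h it was 244 to 273 RPKM in HEA cells and 221 to 240.4 RPKM in RA cells, against 192 to 214 RPKM in EV cells. Meg3 was below 1 RPKM on average. The summed level of 6 macrophage markers, of which Emr1 was at 0 in every library, was 19.4 to 22.7 RPKM in HEA cells, 19.2 to 21.3 RPKM in RA cells and 24.04 to 26.5 RPKM in WT cells, against 22.9 to 25.6 RPKM in EV cells at 8 h. The summed level of the 10 fibroblast markers at 8 h was 682 to 742 RPKM in HEA cells and 673 to 697 RPKM in RA cells, against 642 to 651 RPKM in EV cells. At 4 h the fibroblast sums overlapped, at 691 to 760 RPKM in HEA cells and 660 to 765 RPKM in EV cells. The macrophage sums at 4 h also overlapped, at 19.7 to 21.0 RPKM in HEA cells and 16.4 to 20.8 RPKM in EV cells. At 8 h all 3 sums lay apart from EV in HEA cells and also in RA cells, where 1 listed gene passed. The part of these differences in the lower sterol genes was not tested.

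Other genes of the same pathways were counted from lists of related genes, against the shares of all genes that passed at 8 h, 35.2% for WT and 47.7% for HEA. Of 12 tested of 13 further sterol genes, 1 rose and 3 fell in WT cells at 8 h, and 0 rose and 4 fell in HEA cells. Counted in either direction, this was no larger a share than among all genes at 8 h. At 4 h, 1 rose and 6 fell in HEA cells, where 43.2% of all genes passed (17.7% higher, 25.5% lower). In WT cells at 4 h 1 rose and 2 fell, where 26.1% of all genes passed. Soat1, which stores cholesterol as esters, went in opposite directions at 8 h, with log2 fold changes of 0.43 ± 0.064 in WT cells (adjusted p = 3.02e-05) and -1.10 ± 0.064 in HEA cells (adjusted p = 8.91e-11). It averaged 31.6 ± 1.98 RPKM in WT cells, 10.6 ± 0.0602 RPKM in HEA cells and 23.3 ± 0.860 RPKM in EV cells at 8 h (SD, n = 3 each). Msmo1, a sterol demethylase that shares its complex with Nsdhl, fell in WT cells by 0.35 ± 0.086, and Npc2, which moves cholesterol out of lysosomes, fell in HEA cells by 0.28 ± 0.066.

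Among 7 genes of SREBP control, 1 rose and 1 fell in WT cells and 2 rose and 3 fell in HEA cells at 8 h. The gene listed as 2410131K14Rik, now named Spring1, which is needed for SREBP activation, rose in WT cells by 0.38 ± 0.074 (adjusted p = 0.000475) and fell in HEA cells by 0.82 ± 0.074 (adjusted p = 3.43e-08). Insig2, the relative of Insig1, fell in both, with log2 fold changes of -0.59 ± 0.12 in WT cells and -0.76 ± 0.12 in HEA cells (adjusted p = 0.000921 and 4.61e-05). Of 20 tested of 26 further fatty acid genes, 4 rose and 6 fell in WT cells and 3 rose and 8 fell in HEA cells at 8 h. Acsl1, which activates long-chain fatty acids, rose in both, by 0.98 ± 0.12 and 1.09 ± 0.12. Elovl4, an elongase of very long chains, rose in WT cells by 1.26 ± 0.20, and Slc25a1, the mitochondrial citrate exporter, rose in HEA cells by 0.83 ± 0.11 (adjusted p = 5.53e-05 and 3.4e-06).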

How the data were processed

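RNA-seq libraries of 3T9 fibroblasts were analysed as 8 groups of 3, grouped by the labels. The authors deposited RPKM per gene and library, and a comparison table with log2 fold changes, a test score and p-values. The submitters' processing notes name TopHat2 2.0.8, SAMtools, featureCounts 1.4.5-p1, DESeq2 and mm9, without roles. The sources used here do not give how reads shared between genes were counted. Whole reads could be recovered from the deposited RPKM steps for 100% of 362673 values (within 0.01 read), with the authors' deposited mean normalised counts setting the scale, which gave library totals of 9.82 to 12.8 M reads. Precision is limited for low genes such as Acss2, at 0.011 reads per base.

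Values were tested as log2(RPKM + 0.5) with limma 3.58.1 (R 4.3.3), trend on, 1 mean per group over all 24 libraries with 16 residual degrees of freedom, on 12268 genes with at least 1 RPKM in at least 3 libraries. Each comparison had its own Benjamini-Hochberg adjustment of 2-sided p-values, with a threshold of 0.05. The script was tested on simulated data. Python 3.11.15, pandas 2.3.3 and matplotlib 3.10.9 were used. Alternatives were median centring, quantile normalisation, a pseudocount of 1, no filter, only the groups compared, a replicate block, voom on recovered reads and leaving out each library. The 3 libraries farthest from the others of their own group were HEA at 4 h replicate 2, WT at 8 h replicate 3 and WT at 4 h replicate 3. Leaving these out and removing a trend on reads per base were added after seeing the data.

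The members and lists were chosen with earlier results of these data known. Per-library values are given for SREBP regulators and for genes that passed against EV with a log2 fold change of at least 0.5. From the other lists, the genes named are those with the smallest p in WT and in HEA against EV at 8 h, 2 from each, except 1 gene that is not reported here.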

Additional observations from a re-analysis of the deposited data

Results flagged for a closer look

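Dhcr7 was called in opposite directions in different forms against the same EV libraries, and the forms were then tested against each other with limma. HEA was above RA at 4 h by a log2 fold change of 1.23 ± 0.11 (adjusted p = 2.26e-08) and at 8 h by 0.94 ± 0.11 (adjusted p = 6.1e-07). WT was above RA at 8 h by 0.84 ± 0.11 (adjusted p = 2.98e-06). All 3 libraries of the form that was higher lay above all 3 RA libraries in each of these comparisons.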

How the results depend on the processing

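Of 150 called differences of listed genes, 84 passed under every alternative run, 66 missed the threshold under at least 1 and 0 reversed. The calls missed were 46 with only the groups compared, 24 with no filter, 21 without the 3 farthest libraries, 14 with the reads-per-base trend taken out, 13 centred on medians, 12 with the replicate block, 11 with quantile normalisation, 6 in voom and 1 with a pseudocount of 1. The cause was not tested. Replicate numbers did not pair the libraries: of 84 pairs of libraries with the same number, 30 had a correlation of their deviations over 0.1 (range -0.598 to 0.407), and 6 of 18 form libraries correlated best with the EV library of their number.

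Counts of listed genes that moved were as follows. Fitted on only the groups compared, WT against EV at 4 h had 2 (main 4), RA against EV at 4 h 0 (1), RA against EV at 8 h 7 (1), WT against HEA at 4 h 13 (22), 8 h against 4 h in WT 0 (3) and in HEA 0 (14). Without the 3 farthest libraries these were 7 for WT against EV at 4 h, 2 for RA against EV at 8 h, 4 for 8 h against 4 h in EV (0), 9 in HEA and 2 in RA (0). With no filter, HEA against EV at 8 h had 8 (13), 8 h against 4 h in HEA 9 and the HEA interaction with time 1 (0). In voom, RA against EV at 8 h had 3 and 8 h against 4 h in EV 1. With the replicate block, RA against EV at 8 h had 0.

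Leaving out 1 library at a time, the listed genes called were 3 to 5 for WT, 14 to 17 for HEA and 0 to 2 for RA against EV at 4 h, and 11 to 13 for WT, 8 to 14 for HEA and 0 to 0 for RA at 8 h. They were 16 to 20 for WT against HEA at 4 h and 13 to 16 at 8 h, and between 8 h and 4 h 2 to 3 in WT, 7 to 16 in HEA, 0 to 1 in RA and 0 in EV.

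Of all genes, only the groups compared gave 1112 for WT against EV at 4 h (main 3196), 3 for RA against EV at 4 h (652), 1310 for RA against EV at 8 h (341), 3945 for WT against HEA at 4 h (6073), and between 8 h and 4 h 0 in EV (3), 0 in WT (1038), 2 in HEA (409) and 0 in RA (27). Without the 3 farthest libraries these were 1210 for RA at 4 h, 836 for RA at 8 h, and between times 79 in EV, 188 in HEA and 67 in RA. Voom gave 526 for RA at 8 h and 15 between times in EV, and the replicate block 17 between times in RA. Between times in EV, centring gave 5, quantile normalisation 6, a pseudocount of 1 gave 1 and the trend removed 7, and quantile normalisation gave 647 in HEA.

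Leaving out 1 library at a time, all genes called were 2040 to 3479 for WT, 4323 to 5304 for HEA and 158 to 557 for RA against EV at 4 h, and 3332 to 3980, 4715 to 5356 and 59 to 189 at 8 h. They were 4856 to 5967 for WT against HEA at 4 h and 5106 to 5609 at 8 h, and between times 0 to 4 in EV, 290 to 1118 in WT, 105 to 618 in HEA and 0 to 12 in RA.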

Other observations

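Genes that use fatty acids were counted at 8 h, when 35.2% of all genes passed in WT and 47.7% in HEA cells against EV cells. Of 15 genes of triglycerides and lipid droplets, 13 were tested. The list holds lipases and lipid droplet genes beside those of triglyceride synthesis. Of those tested, 2 rose and 4 fell in WT cells, and 5 rose and 3 fell in HEA cells. In WT cells Dgat2, which adds the last acyl chain, rose by 2.51 ± 0.13 and Gpam, which adds the first, by 0.71 ± 0.076 (limma, adjusted p = 2.94e-11 and 5.36e-07). Dgat2 averaged 25.9 ± 1.09 RPKM in WT cells and 4.13 ± 0.340 RPKM in EV cells (SD, n = 3 each). In HEA cells it was Dgat1 and Agpat2 that rose most clearly, by 1.36 ± 0.10 and 1.44 ± 0.12 (adjusted p = 2.73e-09 and 7.72e-09).

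Of 17 tested of 20 genes of fatty acid oxidation, 0 rose and 12 fell in WT cells, with a median log2 fold change of -0.48 against -0.02 over all genes, and 2 rose and 7 fell in HEA cells, with a median of -0.24 against -0.05 over all genes. Angptl4, a lipase inhibitor and PPAR target, fell to 3.16 ± 0.831 RPKM in WT cells, against 13.9 ± 1.71 RPKM in EV cells (SD, n = 3 each, adjusted p = 1.11e-07). In HEA cells Cpt2, of the carnitine shuttle, rose by 1.02 ± 0.11, and Etfdh, which passes electrons to ubiquinone, fell by 0.51 ± 0.098. Of 9 genes of cholesterol efflux and LXR, 4 were tested. Mylip, which marks the LDL receptor for degradation, fell in WT cells by 0.41 ± 0.12 and rose in HEA cells by 0.59 ± 0.12. Apoe rose in WT cells by 0.58 ± 0.20, and Lpcat3 rose in HEA cells by 0.63 ± 0.11.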
